A study of Mus musculus with 12 samples.

Results

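The circadian clock output genes of liver were examined in RNA sequencing libraries of mouse liver. The 9 genes, chosen by symbol from the deposited table of 49584 genes, were Dbp, Tef, Hlf, Nfil3, Ciart, Bhlhe40, Bhlhe41, Usp2 and Upp2. All 9 were found once in the table and all 9 were among the 12434 genes that reached at least 1 FPKM (fragments per kilobase of transcript, scaled to the counted reads of the library) in at least 3 of the 12 libraries and were therefore tested. The 12 libraries form 4 groups of 3, from wild-type and Tert-/- animals that each received either saline or the alkylating mutagen N-ethyl-N-nitrosourea (ENU). Every animal was of the strain given as C57BL/6/129/SvJ. Tert encodes the catalytic subunit of telomerase, and the Tert-/- mice were labelled G1 and described as matched in age to the wild type. The treatment was an intraperitoneal injection, with ENU at 150 µg per g, and livers were collected 24 h later. The sources used here state neither sex, nor age in weeks, nor the hour of the day at collection. The labels do not say that each library is a separate animal, and if some share an animal, the p-values describe no more than the variation among libraries.

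In liver, a feedback loop of transcription factors drives daily rhythms. The activators Arntl (BMAL1) and Clock, or its relative Npas2, bind E-boxes and switch on both their own repressors (the Per and Cry genes) and a layer of output genes. Dbp, Tef and Hlf encode the PAR bZIP factors, activators that bind D-boxes, and Nfil3 (E4BP4) encodes a bZIP repressor of the same sites. In mouse liver, Dbp and Nfil3 are known to peak at nearly opposite times of day, and the PAR bZIP factors drive genes of detoxification. Ciart (CHRONO), Bhlhe40 (DEC1) and Bhlhe41 (DEC2) encode repressors that feed back on the activators. Usp2 encodes a deubiquitinase, and Upp2 a liver uridine phosphorylase that breaks down uridine. The transcripts of both are strongly rhythmic in mouse liver.

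The sequence just upstream of the transcription start is shown for 3 members, Ciart and Tef for their E-box letters and Hlf for a match to another element. RefSeq (GRCm38.p6) gave a start for 8 of the 9 members, all but Bhlhe40, and 10 windows of 250 bases before a start. The letters CACGTG (E-box), CACGTT (E-box variant), TTATGTAA and TTACGTAA (both D-box), AGGTCA (nuclear receptor half-site) and TGACGTCA (cyclic AMP response element) were searched on both strands. Capitals mark the matches, and in each case the strand of the gene is printed 5′ to 3′.
Ciart (chr3:95882229-95882478, minus strand): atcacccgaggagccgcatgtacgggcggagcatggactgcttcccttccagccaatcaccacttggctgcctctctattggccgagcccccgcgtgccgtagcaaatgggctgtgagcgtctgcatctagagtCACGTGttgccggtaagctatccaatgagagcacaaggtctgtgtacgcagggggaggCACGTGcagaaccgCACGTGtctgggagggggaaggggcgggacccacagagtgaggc
Tef, downstream start (chr15:81811164-81811413, plus strand): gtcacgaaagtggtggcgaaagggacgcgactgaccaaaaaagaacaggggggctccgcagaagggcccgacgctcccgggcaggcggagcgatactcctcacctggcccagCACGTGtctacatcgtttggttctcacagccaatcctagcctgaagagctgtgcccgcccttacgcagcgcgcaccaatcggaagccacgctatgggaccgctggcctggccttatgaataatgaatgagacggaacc
Hlf (chr11:90390918-90391167, minus strand): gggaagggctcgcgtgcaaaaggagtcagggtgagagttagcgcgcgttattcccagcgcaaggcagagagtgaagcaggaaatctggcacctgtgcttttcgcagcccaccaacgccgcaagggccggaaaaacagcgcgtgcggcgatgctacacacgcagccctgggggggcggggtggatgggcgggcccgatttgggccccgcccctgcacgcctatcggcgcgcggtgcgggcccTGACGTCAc
The Ciart window held 3 CACGTG matches, 116, 58 and 44 bases before the start. Of all 32851 windows of this length, 6.02% held at least 1 CACGTG and 0.0609% held 3 or more. Both Tef windows and the Bhlhe41 window held 1 CACGTG each. AGGTCA occurred 2 times in the downstream Upp2 window and 1 time in the Nfil3 window, against 14.0% of all windows with at least 1. TGACGTCA occurred 1 time, 9 bases before the Hlf start (1.55% of windows). The windows of Dbp and Usp2 and the upstream Upp2 window had none of these letters. Not all windows lay outside transcribed sequence. Annotated exons of the same gene covered 159 of the 250 bases for Dbp and all 250 of the upstream Tef window. They covered 138 bases for Bhlhe41 and 242 of the downstream Upp2 window. The Usp2 window (chr9:44084670-44084919) lay inside the gene, so sequence before the first base of Usp2 was not searched. CACGTT (3.85% of windows), TTATGTAA (0.819%) and TTACGTAA (0.113%) had no match in any member window.

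By the coordinates of the deposited table (mm10), Dbp lies at chr7:45705088-45710203, Tef at chr15:81802421-81826861, Hlf at chr11:90336536-90390895, Nfil3 at chr13:52967209-52981073 and Ciart at chr3:95878503-95882251. Bhlhe40 lies at chr6:108660629-108666925, Bhlhe41 at chr6:145858243-145865558, Usp2 at chr9:44067021-44095627 and Upp2 at chr2:58567298-58792971, and all 9 are protein-coding genes in GENCODE M21. Whether counting used strand is not stated, so reads from overlapping genes may be mixed. Dbp shares 737 bases with Sphk2 on the opposite strand, which was at 17.9 to 48.4 FPKM. Ciart lies within an antisense gene, C920021L13Rik, at 0.103 to 0.605 FPKM, and the genes overlapping the other members were at or below 0.657 FPKM.

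Between 30053822 and 43680374 reads per library were recovered from the FPKM values, and the lowest recovered counts of a member in any library were 17 for Ciart, 33 for Bhlhe41 and 78 for Dbp. Tert-/- saline replicate 2 stood apart from the other 11 libraries. It had 17486 genes above 0, against 19576 to 20310 elsewhere, and a median ratio to the geometric mean library of 0.647, against 0.988 to 1.12. Among its own group it held the lowest value of Tef, Hlf, Ciart, Bhlhe40, Bhlhe41, Usp2 and Upp2, but not of Dbp or Nfil3. Calls on the 9 members are given with and without it where they change. Tert itself was at 1.61 to 3.22 FPKM in the wild-type saline libraries and 0.304 to 0.734 in the Tert-/- saline libraries, and at 4.7 to 6.23 and 1.11 to 1.62 FPKM after ENU. Hepatocyte markers were high in all libraries, with Alb at 26600 to 65900 FPKM. Of the lymphocyte markers, Cd3e was at 0 to 0.256 FPKM, Ms4a1 at 0 to 0.158 FPKM and Cd3g at 0 to 0.928 FPKM. Gzma was at 0 to 1.43 FPKM, Cd79a at 0.0158 to 1.47 and Nkg7 at 0 to 1.58. Ptprc, listed with them but not specific to lymphocytes, was at 0.856 to 6.12 FPKM.

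Dbp, the PAR bZIP activator of widest daily range in liver, was at 1.45, 8.67 and 1.92 FPKM in wild-type saline replicates 1 to 3. The wild-type ENU replicates had 6.74, 75.6 and 55.6 FPKM, and Dbp was at 65.6, 82.8 and 86.7 FPKM in Tert-/- saline and at 45.9, 31.6 and 66.1 FPKM in Tert-/- ENU. The 3 wild-type saline libraries and wild-type ENU replicate 1 lay between 1.45 and 8.67 FPKM, the other 8 libraries lay between 31.6 and 86.7 FPKM, and none lay between these ranges.

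Tef was at 51.7, 66.4 and 36.0 FPKM in wild-type saline, 92.4, 176 and 208 FPKM in wild-type ENU, 174, 71.9 and 218 FPKM in Tert-/- saline and 214, 162 and 223 FPKM in Tert-/- ENU. For Tef the 3 wild-type saline libraries were the lowest of the 12, followed by Tert-/- saline replicate 2 and wild-type ENU replicate 1. Hlf, the least abundant PAR bZIP transcript in 8 of the 12 libraries, moved within a smaller range. Its values were 18.7, 17.3 and 17.2 FPKM in wild-type saline, 20.4, 26.1 and 26.3 with ENU in that genotype, 26.9, 6.99 and 33.8 in Tert-/- saline and 32.7, 30.7 and 28.8 in Tert-/- ENU. Without Tert-/- saline replicate 2, which had the lowest value of all, every other library had more Hlf than the wild-type saline libraries.

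Nfil3, the repressor of the PAR bZIP sites, ran the other way. Wild-type saline replicates had 34.7, 28.7 and 34.2 FPKM of it, and the values were 23.5, 13.5 and 11.9 in wild-type ENU, 18.7, 18.1 and 7.45 in Tert-/- saline and 7.90, 10.6 and 9.74 in Tert-/- ENU. The wild-type saline libraries had the highest Nfil3 of all 12, and wild-type ENU replicate 1 came next.

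**Figure D1:**
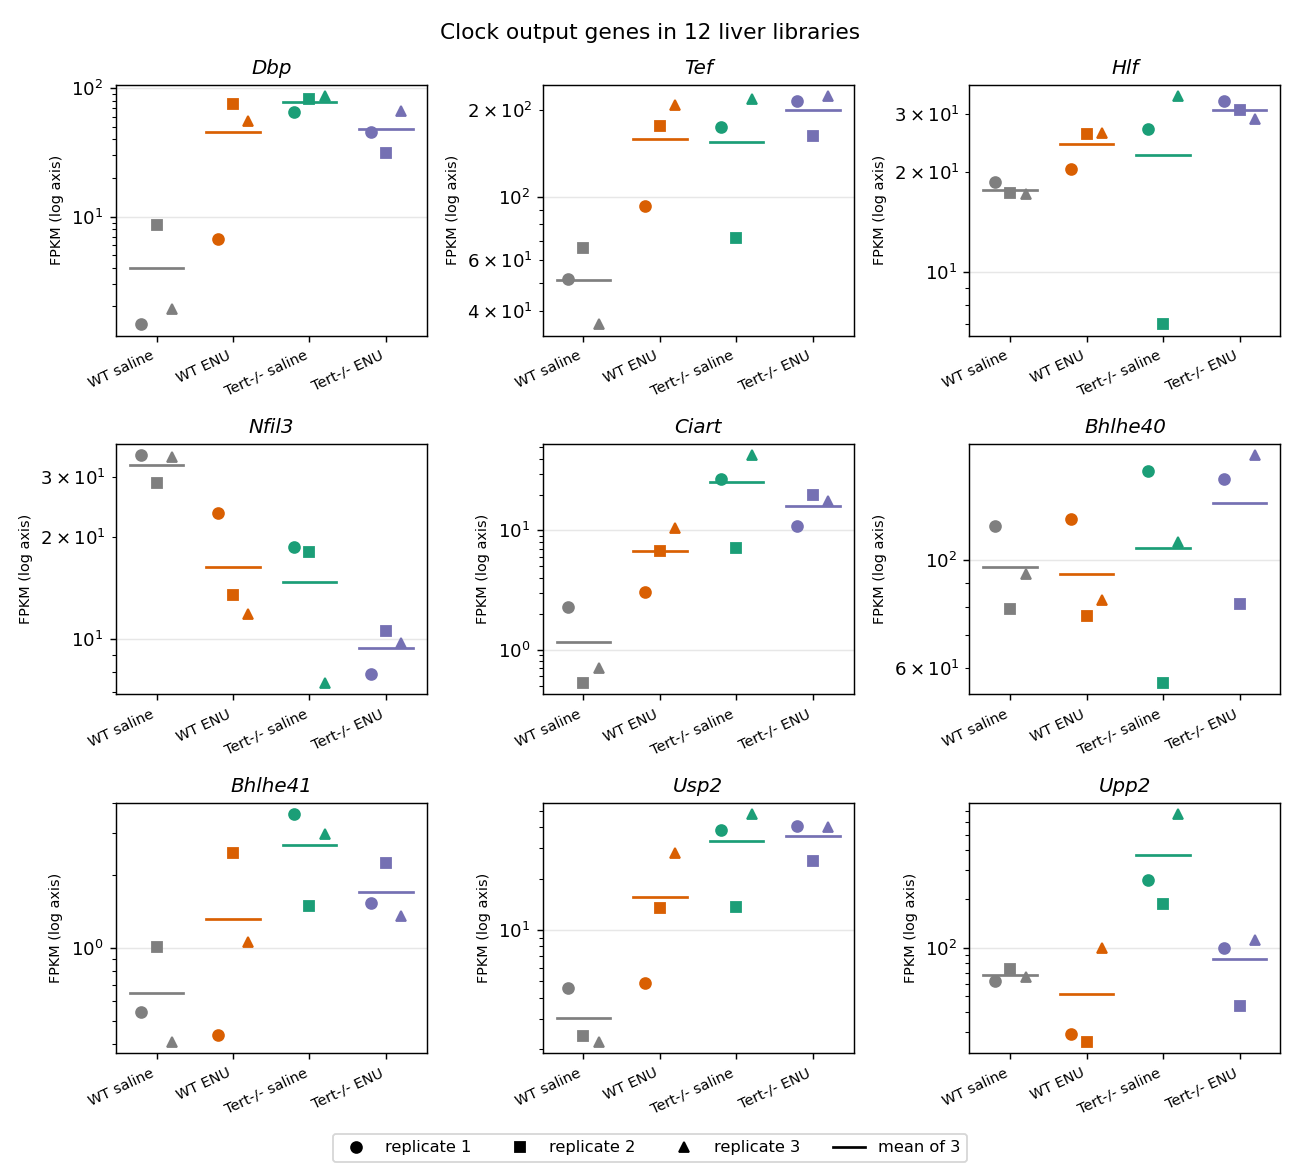
FPKM of the 9 clock output genes in each of 12 liver libraries on log axes, with marker shape giving the replicate and the line the mean of 3. Wild-type saline libraries hold the lowest Dbp values with wild-type ENU replicate 1 (1.45 to 8.67 FPKM) and the highest Nfil3 values (28.7 to 34.7 FPKM), and Tert-/- saline replicate 2 has the lowest Hlf (6.99 FPKM).

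Set against each other within a library, activators and repressor gave a wider contrast than either alone. The log2 ratio of Dbp to Nfil3, each as FPKM + 1, was -3.86, -1.62 and -3.59 in the wild-type saline replicates, against -1.66, 2.40 and 2.14 with ENU. It was 1.76, 2.13 and 3.38 in Tert-/- saline and 2.40, 1.49 and 2.64 in Tert-/- ENU. Nfil3 thus exceeded Dbp in the 3 wild-type saline libraries and in wild-type ENU replicate 1, and Dbp exceeded Nfil3 in the other 8. For Tef the ratio was above 0 in all 12 libraries, from 0.07 in wild-type saline replicate 3 to 4.69 in Tert-/- saline replicate 3. Of the summed FPKM of the 3 PAR bZIP genes, which compares levels per length, Dbp made up 2.02 to 9.39% in the wild-type saline libraries, 5.64% in wild-type ENU replicate 1 and 14.1 to 51.2% in the other 8. Tef was the largest component in 11 libraries, at 63.4 to 77.3%, and was below Dbp in Tert-/- saline replicate 2, at 44.5% against 51.2%.

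**Figure D2:**
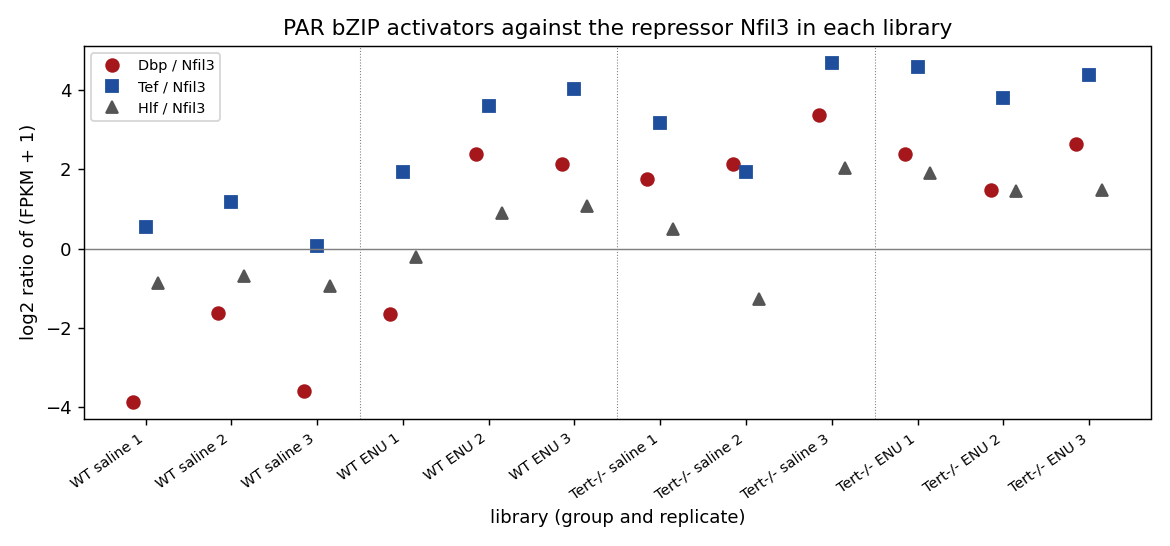
Log2 ratio of Dbp, Tef and Hlf to Nfil3, each as FPKM + 1, in each of the 12 libraries, with 0 marking equal levels. The Dbp ratio is negative in the 3 wild-type saline libraries (-3.86 to -1.62) and in wild-type ENU replicate 1 (-1.66), and positive in the other 8 (1.49 to 3.38).

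Among the feedback repressors, Ciart had 2.27, 0.526 and 0.702 FPKM in the saline replicates of wild type and 3.06, 6.68 and 10.4 FPKM in its ENU replicates. In Tert-/- mice it was at 27.2, 7.10 and 42.8 FPKM in saline and 10.8, 19.7 and 17.5 FPKM after ENU. Within each treatment, the Ciart values of Tert-/- libraries all exceeded those of wild-type libraries. Bhlhe41 was low throughout, at 0.541, 1.01 and 0.408 FPKM in wild-type saline, 0.435, 2.48 and 1.06 with ENU in that genotype, 3.60, 1.49 and 2.96 in Tert-/- saline and 1.53, 2.25 and 1.36 in Tert-/- ENU. Its wild-type saline values lay below all Tert-/- values but overlapped those of wild-type ENU. Its paralogue Bhlhe40 was 31.1 to 281 times as abundant in FPKM. Bhlhe40 was at 118, 79.3 and 93.6 FPKM in wild-type saline, 122, 76.9 and 82.7 with ENU in that genotype, 153, 55.8 and 109 in Tert-/- saline and 147, 81.3 and 165 in Tert-/- ENU, and all 4 groups overlapped.

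The effector gene Usp2 had 4.59, 2.40 and 2.21 FPKM in the wild-type saline replicates, against 4.89, 13.4 and 28.4 FPKM with ENU. It was at 38.5, 13.7 and 47.8 FPKM in Tert-/- saline and 40.8, 25.5 and 39.9 FPKM in Tert-/- ENU. Upp2 had another order of levels from the rest. Wild-type saline replicates had 62.6, 73.9 and 66.3 FPKM of it, and the values were 29.4, 26.2 and 100 in wild-type ENU, 263, 187 and 670 in Tert-/- saline and 99.3, 43.7 and 111 in Tert-/- ENU. The 3 Tert-/- saline libraries were the highest of the 12, and the other 3 groups overlapped.

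Wild-type saline had the lowest of the 4 group means for Dbp, Tef, Hlf, Ciart, Bhlhe41 and Usp2. For Dbp the means were 4.01 ± 4.04, 46.0 ± 35.4, 78.4 ± 11.2 and 47.9 ± 17.3 FPKM (SD, n = 3) in wild-type saline, wild-type ENU, Tert-/- saline and Tert-/- ENU. The means for wild-type ENU and Tert-/- ENU were closer than their SDs. The spread was widest in wild-type ENU, where the highest Dbp value was 11.2 times the lowest, against 1.32 times in Tert-/- saline. On the log2(FPKM + 1) scale the SD of Dbp within wild-type ENU was 1.80, while the median SD over all tested genes in that group was 0.15. That median was 0.42 in Tert-/- saline and 0.13 and 0.14 in the remaining 2 groups.

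Differences between groups were tested with limma on log2(FPKM + 1) over all 12434 genes, with Benjamini-Hochberg adjustment over all of them and a threshold of 0.05. The differences are on that scale, which understates the change of genes with low values. In whole liver, fewer cells of a type and less RNA per cell cannot be told apart.

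The comparison with the most members called was Tert-/- against wild type in mice given saline, which asks what loss of Tert does without a mutagen. Dbp, Ciart, Usp2 and Upp2 were higher in Tert-/- liver, by 4.26 (SE 0.74), 3.40 (SE 0.57), 2.95 (SE 0.55) and 2.23 (SE 0.55) on the log2 scale. In FPKM, Ciart went from 1.17 ± 0.961 to 25.7 ± 17.9, Usp2 from 3.06 ± 1.32 to 33.3 ± 17.6 and Upp2 from 67.6 ± 5.78 to 373 ± 259 (SD, n = 3). The adjusted p was 0.0174 for Dbp, 0.0163 for Ciart, 0.0205 for Usp2 and 0.0419 for Upp2 by limma. These were 4 of 9 members higher and 0 lower, where 0.748% of all tested genes were higher and 4.26% lower. Tef had a difference of 1.47 (SE 0.40, adjusted p = 0.059), Bhlhe41 of 1.13 (SE 0.32, adjusted p = 0.0644) and Nfil3 of -1.19 (SE 0.32, adjusted p = 0.0559), which did not pass. Hlf differed by 0.08 (95% interval -0.81 to 0.98) and Bhlhe40 by 0.03 (-0.76 to 0.81), intervals that still allow changes up to these bounds. In 6 members all Tert-/- libraries lay above all wild-type libraries and in 1, Nfil3, all lay below, against 6.42% and 19.5% of tested genes. The median over the 9 members was 1.47, beside -0.19 over all tested genes.

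The calls in saline depended on single libraries. Without Tert-/- saline replicate 2, 7 members were higher and 1 was lower, where 4.68% of tested genes were higher and 8.2% lower. Tef was then at 1.95 (adjusted p = 0.00907), Hlf at 0.74 (adjusted p = 0.0109), Bhlhe41 at 1.39 (adjusted p = 0.0227) and Nfil3 at -1.37 (adjusted p = 0.0272), and Bhlhe40 alone did not pass, at 0.43 (adjusted p = 0.369). Nfil3 also passed without Tert-/- saline replicate 1 (-1.40, adjusted p = 0.0489). Leaving out wild-type saline replicate 1 ended the Dbp call (3.89, adjusted p = 0.102), the Ciart call (3.74, adjusted p = 0.084) and the Usp2 call (3.21, adjusted p = 0.0954). Leaving out replicate 2 ended those of Ciart and Usp2 (adjusted p = 0.0611 and 0.0795), and leaving out replicate 3 those of Dbp, Ciart and Usp2 (adjusted p = 0.0636, 0.0586 and 0.071). The Upp2 call held in 2 of 12 such fits, those without Tert-/- saline replicate 2 and without wild-type ENU replicate 3, with differences from 1.70 to 2.62 and adjusted p from 0.0205 to 0.155. The estimates of Dbp stayed between 3.89 and 4.88 in all 12 fits.

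**Figure D3:**
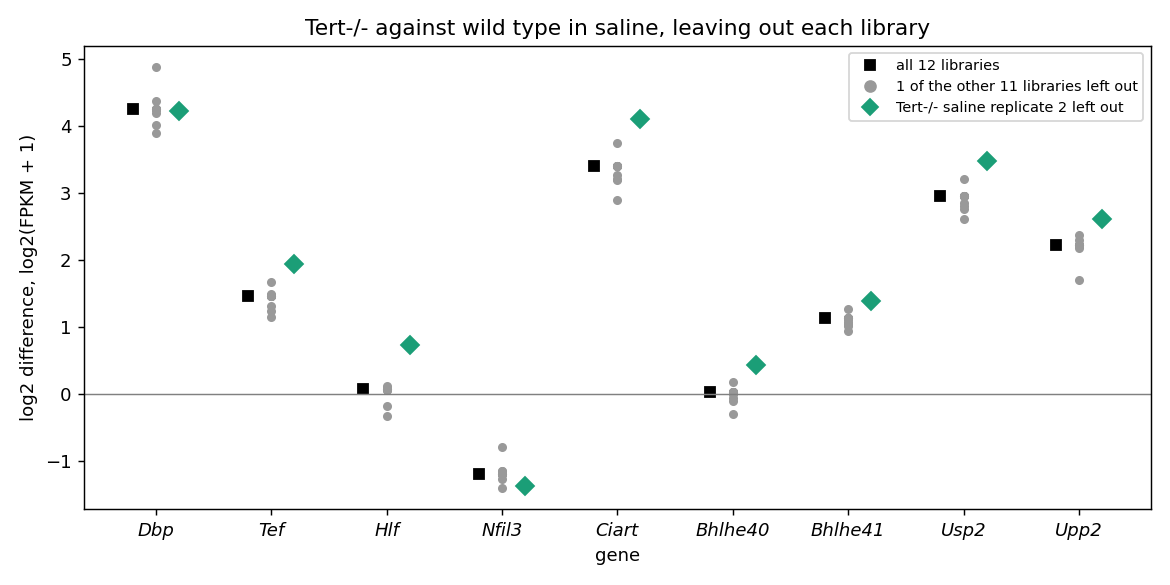
Log2 difference between Tert-/- and wild-type saline livers on the log2(FPKM + 1) scale for each member, with all 12 libraries (black squares) and with each library left out in turn (grey circles, and green diamonds for Tert-/- saline replicate 2). Without that library the estimate of Hlf moves from 0.08 to 0.74, while Dbp stays at 4.22 beside 4.26.

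The response of wild-type liver to the mutagen was taken from ENU against saline, which shares the 3 wild-type saline libraries with the comparison just given. By limma 0 of 9 members passed, where 0.748% of tested genes were higher and 0.249% lower. An unadjusted p under 0.05 was found for 1574 of all tested genes, 5 of them members. The estimates were 2.97 for Dbp (SE 0.74, adjusted p = 0.0987), 1.57 for Tef (SE 0.40, adjusted p = 0.109), 1.79 for Ciart (SE 0.57, adjusted p = 0.206), 1.78 for Usp2 (SE 0.55, adjusted p = 0.189) and -1.01 for Nfil3 (SE 0.32, adjusted p = 0.207). All 3 ENU libraries lay above all saline libraries for Tef, Hlf, Ciart and Usp2, and below for Nfil3, against 27% of tested genes above and 8.33% below. The ENU libraries were themselves unlike each other. Replicate 1 was close to the saline libraries for Dbp, Bhlhe41 and Usp2, and replicates 2 and 3 were close to the Tert-/- libraries for Dbp and Tef. Without replicate 1 the Dbp estimate was 4.0 (adjusted p = 0.00444), the only member to pass, where 0.475% of tested genes were higher. Without Tert-/- saline replicate 2, which belongs to another group and enters only through the pooled variance, 5 members were higher and 0 lower, where 8.55% of tested genes were higher and 2.1% lower. These were Dbp (adjusted p = 0.0372), Tef (0.0111), Hlf (0.0469), Ciart (0.0207) and Usp2 (0.038).

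In Tert-/- mice, Upp2 fell after ENU, with 373 ± 259 FPKM in saline and 84.8 ± 36.0 FPKM with ENU (SD, n = 3). The log2 difference was -2.02 (SE 0.55, adjusted p = 0.04 by limma). No other of the 9 members passed, so 1 of 9 was lower and 0 were higher, where 8.13% of tested genes were higher and 1.45% lower. Its ENU and saline libraries did not overlap, whereas those of the other 8 members did (24.5% of tested genes were higher and 6.35% lower without overlap). The call held in 2 of 12 fits that left out a library, those without wild-type ENU replicate 3 (-2.02, adjusted p = 0.0269) and without Tert-/- saline replicate 2 (-2.40, adjusted p = 0.0191, where 12.9% of tested genes were higher and 4.2% lower), and the adjusted p reached 0.138 without Tert-/- ENU replicate 2. For Dbp the estimate was -0.75 (SE 0.74, adjusted p = 0.505) and for Ciart -0.38 (SE 0.57, adjusted p = 0.665), with the Tert-/- saline libraries already at 65.6 FPKM or more of Dbp. Usp2 was at 0.22 (SE 0.55), or -0.07 after median-ratio rescaling and -0.30 without Tert-/- saline replicate 2, so its direction was not settled. Nfil3 was at -0.51 (SE 0.32, adjusted p = 0.307), and it passed without Tert-/- saline replicate 3 (-0.91, adjusted p = 0.0299).

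**Figure D4:**
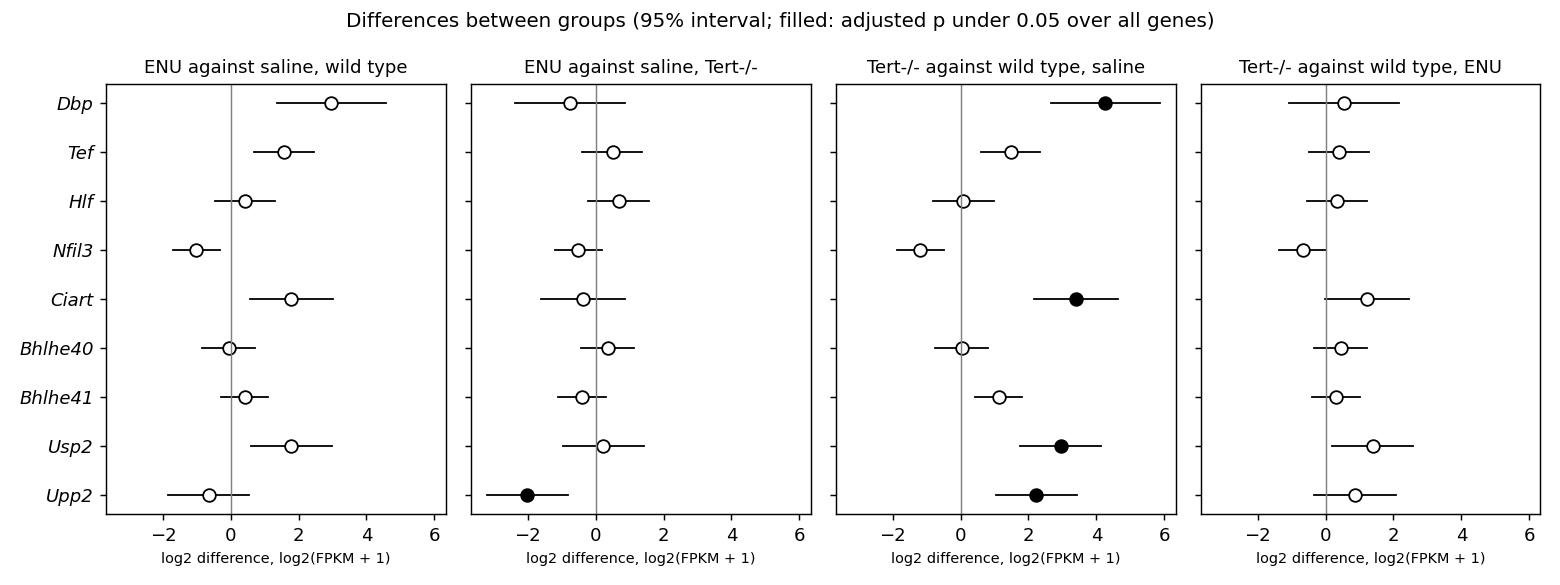
Log2 differences on the log2(FPKM + 1) scale for the 9 members in 4 comparisons, with 95% intervals from limma and filled circles where the adjusted p over all 12434 genes was under 0.05. The filled points are Dbp, Ciart, Usp2 and Upp2 in saline (4.26, 3.40, 2.95 and 2.23) and Upp2 for ENU in Tert-/- mice (-2.02).

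After ENU, Tert-/- and wild-type livers were compared to ask whether the genotypes differed after the mutagen. By limma 0 of 9 members passed, as did 0% of all tested genes, while 541 genes had an unadjusted p under 0.05. Among them was 1 member, Usp2 (log2 1.39, SE 0.55). With voom on recovered reads the count was also 0. Ciart had an estimate of 1.22 (SE 0.57), Nfil3 of -0.68 (SE 0.32) and Dbp of 0.54 (SE 0.74). Hlf and Ciart were higher in all 3 Tert-/- libraries than in all 3 wild-type libraries, and Nfil3 was lower, against 5.56% and 10.4% of tested genes. Without wild-type ENU replicate 1 the Dbp estimate turned to -0.49 (SE 0.51).

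The test of whether the ENU effect differed between genotypes called 0 of 9 members and 0% of all genes by limma, and 0 by voom, with 844 genes at an unadjusted p under 0.05, 2 of them members. These were Dbp, at -3.72 (SE 1.05, adjusted p = 0.67), and Ciart, at -2.18 (SE 0.80, adjusted p = 0.674). Averaged over both genotypes, the effect of ENU was positive for Tef (log2 1.03, SE 0.29, adjusted p = 0.0339) and negative for Nfil3 (-0.76, SE 0.23, adjusted p = 0.0453) and Upp2 (-1.33, SE 0.39, adjusted p = 0.0415). That made 1 of 9 members higher, near the 11.3% of all tested genes that were higher, and 2 lower, where 2.73% were lower. For Tef the estimate was 1.57 in wild type and 0.50 in Tert-/- mice (SE 0.40, adjusted p = 0.423 by limma). Without Tert-/- saline replicate 2, Tef was at 0.02 in Tert-/- mice. Of 12 fits that each left out a library, the call held in 6 for Tef, 3 for Nfil3 and 4 for Upp2. The adjusted p by limma reached 0.0852 for Tef, 0.111 for Nfil3 and 0.0998 for Upp2. Nfil3 also did not pass with a pseudocount of 0.1 (adjusted p = 0.054 by limma).

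The core clock genes upstream of the members were listed as the other genes of the pathway, and all 15 were tested. Arntl and Npas2, which encode activators of the loop, were lower in Tert-/- than in wild-type saline livers, by 2.68 (SE 0.40, adjusted p = 0.0154) and 2.22 (SE 0.43, adjusted p = 0.0225) on the log2 scale. These were 2 of 15 lower and 0 higher, where 4.26% of tested genes were lower. The counts without Tert-/- saline replicate 2 were 2 lower and 3 higher, where 8.2% of tested genes were lower and 4.68% higher. The higher ones were the repressor genes Per3 (2.76, adjusted p = 0.0185), Cry2 (0.69, adjusted p = 0.0384) and Nr1d2 (1.44, adjusted p = 0.00975 by limma). Arntl was at 9.63, 7.80 and 9.22 FPKM in wild-type saline, 10.1, 3.32 and 2.14 with ENU in that genotype, 0.744, 0.264 and 0.636 in Tert-/- saline and 1.77, 2.94 and 0.843 in Tert-/- ENU. Wild-type ENU replicate 1 was just above the saline libraries for Arntl and within their range for Dbp. Npas2 was at 2.93 to 5.03 FPKM with saline in wild type, at 3.61 FPKM in ENU replicate 1 of that genotype and at 0 to 0.297 FPKM in the other 8 libraries.

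The other core genes varied less or in other ways. Per3, a repressor gene, was at 0.988 to 2.58 FPKM in those 4 wild-type libraries and at 2.26 to 18.5 in the other 8, the lowest of these being Tert-/- saline replicate 2. Averaged over genotypes, the repressor genes Per1 and Per2 rose after ENU, by 1.07 (SE 0.28, adjusted p = 0.0265) and 1.76 (SE 0.52, adjusted p = 0.0431), which were 2 of 15 higher and 0 lower, near the 11.3% of all tested genes that were higher in this comparison. Cry2 also passed without Tert-/- saline replicate 2 (0.42, SE 0.13, adjusted p = 0.0306). In either genotype alone 0 of 15 passed by limma. Without Tert-/- saline replicate 2, 3 of 15 were higher after ENU in wild type (Per3, Cry2 and Nr1d2) and 0 in Tert-/- mice. Of all tested genes, 8.55% were then higher in wild type and 12.9% in Tert-/- mice. Nr1d1, which encodes the repressor REV-ERB alpha, was at 11.2 to 39.9 FPKM over all 12 libraries with overlapping groups. In saline the genotype difference was -1.21 for Clock, -0.97 for Cry1, 0.42 for Cry2, 0.56 for Per1, 0.32 for Per2 and 0.83 for Nr1d2, none of which passed with all libraries. The nuclear receptor gene Rora was at -0.38, and the kinase genes Csnk1d and Csnk1e were at -0.35 and -0.25. The median of the 15 in saline was -0.25, beside -0.19 over all genes. These values depended on Tert-/- saline replicate 2. Without it Rora was at 0.25, Csnk1d at 0.01 and Csnk1e at -0.08. Clock and Cry1 were then at -0.72 and -0.39, and Per1 and Per2 at 0.72 and 1.29. The median of the 15 was then 0.07, beside -0.01 over all genes.

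**Figure D5:**
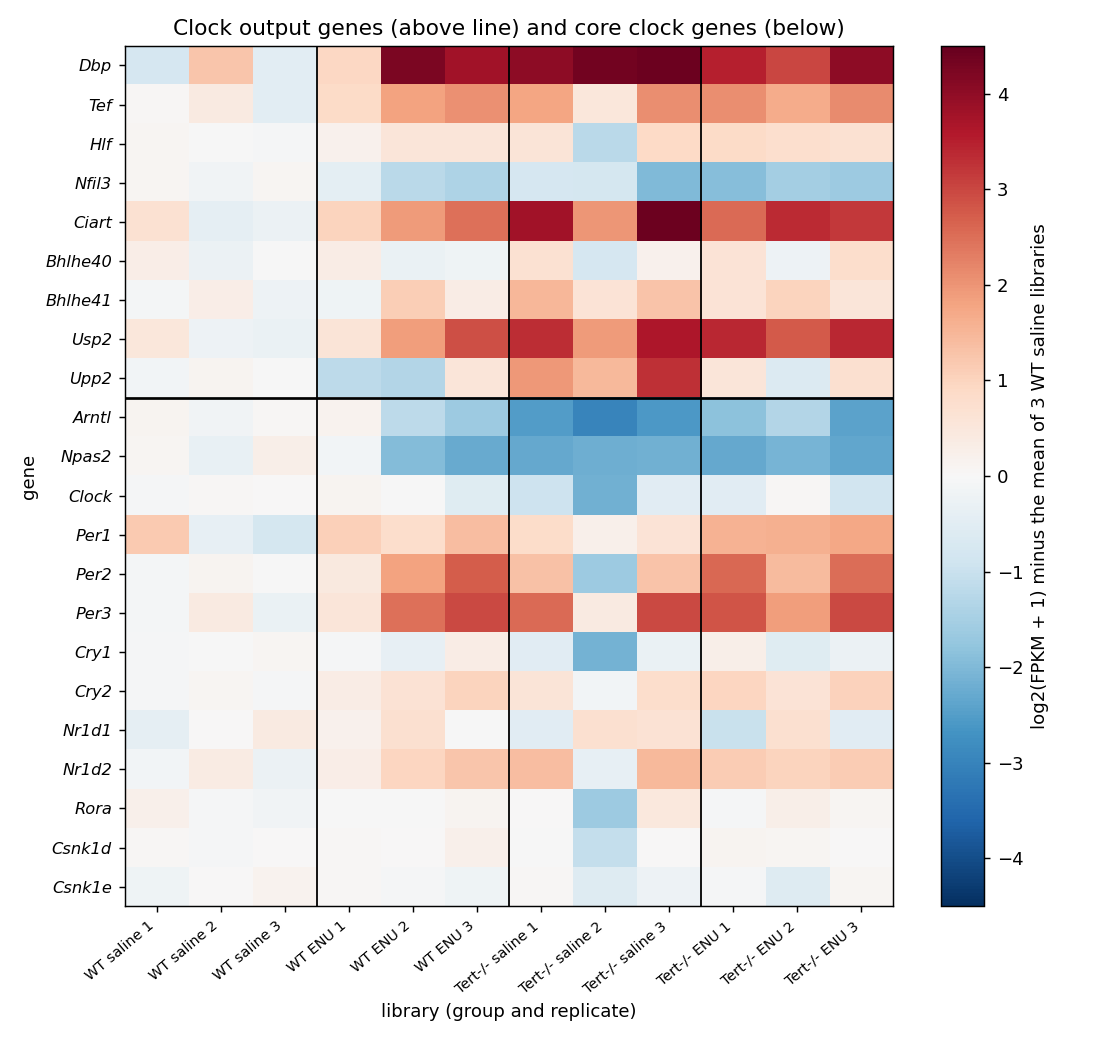
Log2(FPKM + 1) of the 9 clock output genes (above the line) and 13 core clock genes (below) in each library, as the difference from the mean of the 3 wild-type saline libraries. Wild-type ENU replicate 1 is close to the saline libraries for Dbp, Arntl and Npas2 (6.74, 10.1 and 3.61 FPKM), and Tert-/- saline replicate 2 has lower Hlf and Rora (6.99 and 7.01 FPKM) than any other library.

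Genes known in mouse liver to depend on the PAR bZIP factors were followed as a list of 11, of which 10 were tested. In saline, 1 of 10 was higher in Tert-/- liver and 0 lower, the cytochrome P450 gene Cyp2a5 (log2 1.79, SE 0.44, adjusted p = 0.0423 by limma). The count was again 1 and 0 without Tert-/- saline replicate 2. Of all tested genes, 0.748% were higher (4.68% without that library). The median of the 10 was 0.31, beside -0.19 over all genes. Por, the gene of the reductase that supplies electrons to the cytochromes P450, was at 0.56 (SE 0.24, adjusted p = 0.193). After ENU in wild type 0 of 10 passed. Without Tert-/- saline replicate 2, Ppara (0.99) and Aldh1a1 (0.45) were higher and the cytochrome P450 gene Cyp2b10 (-1.78) was lower. Of all tested genes, 8.55% were then higher and 2.1% lower. In Tert-/- mice 2 of 10 rose after ENU, the retinaldehyde dehydrogenase gene Aldh1a1 (0.88, SE 0.20, adjusted p = 0.0242) and the nuclear receptor gene Nr1i3 (1.07, SE 0.29, adjusted p = 0.0388), and 1 fell, the carboxylesterase gene Ces2a (-1.11, SE 0.28, adjusted p = 0.0329). These counts stood beside 8.13% of tested genes higher and 1.45% lower. Leaving out Tert-/- saline replicate 2 ended the Nr1i3 call (0.89, SE 0.30, adjusted p = 0.0631), while the nuclear receptor gene Ppara then passed (0.87, SE 0.25, adjusted p = 0.0367).

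Of 11 other rhythmic liver genes, 1 was higher and 2 were lower in Tert-/- saline livers. Of all tested genes, 0.748% were higher and 4.26% lower in that comparison. The glycogen synthase gene Gys2 was higher by 1.01 (SE 0.22, adjusted p = 0.0336), and Insig2, a regulator of sterol sensing, and Leo1, a transcription elongation gene, were lower by 1.28 (SE 0.31) and 1.06 (SE 0.16), with adjusted p = 0.0398 and 0.0154. Without Tert-/- saline replicate 2 the counts were 4 higher and 2 lower, the additional genes being Nampt, Wee1 and Coq10b. The shares of all tested genes were then 4.68% higher and 8.2% lower. After ENU 1 of 11 rose in Tert-/- mice, Leo1 (0.66, SE 0.16, adjusted p = 0.0283), near the 8.13% of all tested genes that were higher. In wild type 0 of 11 passed. Without Tert-/- saline replicate 2, 1 was lower there, Insig2 (-1.32, adjusted p = 0.0165 by limma), where 2.1% of tested genes were lower. Of 10 tested genes that respond to glucocorticoids or fasting, signals that also set the phase of liver clocks, 0 passed in saline between genotypes and 0 after ENU in either genotype. With Tert-/- saline replicate 2 left out, 1 of 10 was lower after ENU in wild type, Tat (-0.95). Of all tested genes, 2.1% were lower there. In Tert-/- mice 1 of 10 was then higher, Angptl4 (2.3), near the 12.9% of all tested genes that were higher. The median of the 10 was -0.88 for genotype in saline, beside -0.19 over all genes. Sgk1 was at -0.88 (SE 0.28, adjusted p = 0.0891) and Pdk4 at -1.48 (SE 0.51, adjusted p = 0.113) by limma. Without Tert-/- saline replicate 2 that median was -0.6, beside -0.01 over all genes. By limma Sgk1 was then at -0.74 (adjusted p = 0.114) and Pdk4 at -0.98 (adjusted p = 0.199).

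Over the 12 libraries, the genes whose log2(FPKM + 1) followed Dbp most closely were Rmnd1, Aadat, Polg2, Ndufab1 and Slc2a5, with Pearson r from 0.951 to 0.889. Those that followed Nfil3 were Rrbp1, Gm13889, Arhgap10, Pde9a and Tagln2, with r from 0.945 to 0.911. These values are a description over 12 libraries that share their group structure, picked as the highest of 12434. Within groups, where each library is taken as its deviation from the group mean, r with Dbp was 0.546 for Ndufab1 to 0.768 for Rmnd1, and r with Nfil3 was 0.658 for Pde9a and Tagln2 to 0.94 for Gm13889. Rmnd1, a mitochondrial translation gene, was at 16.1 ± 1.26 FPKM in wild-type saline, against 21.1 ± 2.16 to 24.1 ± 2.40 FPKM in the other groups (SD, n = 3), a narrow range beside that of Dbp.

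Summed levels of markers of other liver cells also differed between these groups. Summed Kupffer cell markers were at 250 to 452 FPKM in wild-type saline, 130 to 350 in wild-type ENU, 134 to 312 in Tert-/- saline and 113 to 141 in Tert-/- ENU. Of the 8 genes, 1 was lower between genotypes in saline (4 without Tert-/- saline replicate 2), with a median of -1.01. Of all tested genes, 4.26% were lower in that comparison (8.2% without that library). The 8 sinusoidal endothelial markers summed to 143 to 173 FPKM in wild-type saline, 92.4 to 137 in wild-type ENU, 93.4 to 117 in Tert-/- saline and 86.7 to 96.8 in Tert-/- ENU. Between genotypes in saline 3 of them were lower (4 without that library), with a median of -0.74. After ENU 0 were called in either genotype, where 0.249% of tested genes were lower in wild type and 1.45% in Tert-/- mice. Without that library 4 were lower in wild type and 1 in Tert-/- mice, where 2.1% and 4.2% of tested genes were lower. The 8 hepatocyte markers summed to 56600 to 76400, 42600 to 60600, 60200 to 99100 and 41200 to 59200 FPKM in the same order of groups. Of these, 0 were called between genotypes in saline and after ENU in wild type, and 2 were lower after ENU in Tert-/- mice (3 without that library). The 7 stellate cell and fibroblast markers summed to 90.8 to 118, 66.3 to 98.0, 49.9 to 77.6 and 52.2 to 57.5 FPKM in wild-type saline, wild-type ENU, Tert-/- saline and Tert-/- ENU. In the same order, the lymphocyte markers summed to 7.51 to 8.52, 2.35 to 4.03, 2.31 to 4.97 and 0.916 to 1.80 FPKM, the cholangiocyte markers to 44.5 to 65.2, 36.4 to 43.4, 29.3 to 49.9 and 30.5 to 43.5, and the erythroid markers to 213 to 411, 127 to 143, 187 to 838 and 105 to 124. Ptprc, the only gene of the lymphocyte list that was tested, is not specific to lymphocytes. It made up 5.06 of the 8.15 FPKM summed in wild-type saline replicate 1. Its group means were 4.73, 2.85, 1.67 and 1.1 FPKM. It was lower between genotypes in saline, but not without Tert-/- saline replicate 2. Of the stellate cell and fibroblast markers, 1 was lower between genotypes in saline and 1 after ENU in wild type. Without that library 1 was also lower after ENU in Tert-/- mice. Of 5 tested erythroid markers, 1 was lower after ENU in wild type (3 without that library) and 4 in Tert-/- mice. Another of them, Alas2, was not lower, with group means of 77.6, 99.9, 79.4 and 89.6 FPKM in the same order. Beside all these counts after ENU, 0.249% of tested genes were lower in wild type and 1.45% in Tert-/- mice. Without that library the shares were 2.1% and 4.2%. The part of these marker differences in the results for the members was not tested, and neither was that of the hour of collection.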

How the data were processed

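RNA was extracted from liver with TRIzol and libraries were made with a NEBNext Ultra kit, per the labels' protocols. Reads were processed with HISAT2 and HTSeq on mm10, per the submitters' processing notes, and the authors deposited 1 table of FPKM values per gene and library. No version, annotation or strand setting is stated. Each of 12 libraries was matched to its group by its label. Values were taken as log2(FPKM + 1), a gene was kept if 3 or more libraries reached 1 FPKM, and limma 3.58.1 (R 4.3.3) fitted a 4-group model with a mean-variance trend and Benjamini-Hochberg adjustment over 12434 genes. The log2 values were computed here from the deposited FPKM. From the deposited FPKM, mean GENCODE M21 transcript lengths gave whole reads, within 0.01, for 15675 of 26524 expressed genes. For another 10848 the length was instead taken as the smallest whole number that made the reads whole, so their reads rest on a fitted length. These reads served depth and the voom alternative. The fit was tested on simulated data. The members, the gene lists and the tests were chosen with earlier results of these data known. Named besides the 9 members were Tert, 13 of the 15 core clock genes (the others count in the list but are not reported here), and from the other lists the genes past the threshold or those of largest statistic, plus the genes most correlated with Dbp and Nfil3. Alternatives were a pseudocount of 0.1, no filter, median-ratio rescaling, voom, a replicate block, each pair of groups alone and leaving out each library.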

Additional observations from a re-analysis of the deposited data

How the results depend on the processing

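With all 12 libraries, the ENU effect called 0 members in wild type and 1 in Tert-/- mice, the genotype effect called 4 in saline and 0 after ENU, the difference of the ENU effects called 0 and the averaged ENU effect 3. Fitting only the 2 groups compared gave 3, 0 and 0 for the first 3 of these, and using no filter gave 2 for genotype in saline, 0 for ENU in Tert-/- mice and 0 for the averaged effect, which tested more genes. For genotype in saline, median-ratio rescaling and voom each called 6, adding Tef (adjusted p = 0.0269 and 0.0272) and Bhlhe41 (0.0386 and 0.0428), and rescaling moved the median of all genes from -0.19 to -0.01 and that of the members from 1.47 to 1.69. Leaving out 1 library each gave 0 to 5, 0 to 1, 0 to 8, 0 to 0, 0 to 0 and 0 to 4 calls in the same order. Over all genes, the calls for genotype in saline were 623, against 344 with the replicate block, 421 with rescaling, 329 with voom, 280 with no filter and 1 with the 2 groups alone. For ENU in Tert-/- mice they were 1191, against 729 with no filter, 769 with voom and 56 with the 2 groups alone, and for ENU in wild type 124, against 1111 with the 2 groups alone. Single libraries moved these counts further. Genotype in saline went from 4 without wild-type saline replicate 1 to 1602 without Tert-/- saline replicate 2 (16 and 54 without wild-type saline replicates 3 and 2). ENU in Tert-/- mice went from 266 without Tert-/- ENU replicate 1 to 2795 without Tert-/- saline replicate 3, and ENU in wild type from 49 without wild-type saline replicate 1 to 1324 without Tert-/- saline replicate 2. The averaged effect, at 1749, went from 862 without Tert-/- ENU replicate 1 to 3445 without Tert-/- saline replicate 2.

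Usp2 for ENU in Tert-/- mice turned from 0.22 to -0.07 with rescaling and with voom. When 1 library was left out, the direction turned for Usp2 (-0.30 to 0.56), Ciart (-1.09 to 0.13) and Bhlhe40 (-0.04 to 0.68) in that comparison and for Bhlhe40 for ENU in wild type (-0.26 to 0.09). It also turned for Hlf (-0.33 to 0.74) and Bhlhe40 (-0.29 to 0.43) for genotype in saline, for Dbp for genotype after ENU (-0.49 to 1.16) and for Hlf for the difference (-0.40 to 0.66). None of these was called with all libraries. The cause was not tested.

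Replicate numbers were shared by the groups. Of 18 same-numbered pairs, 7 had deviations correlated over 0.1 (r from -0.156 to 0.208). The best match had its own number in 18 of 36 checks, each of which chose among the 3 libraries of another group. These values did not settle whether the numbers pair the libraries. The main fit treated the libraries as unpaired. With the replicate block the members called were 0, 1, 4, 0, 0 and 3.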
